A study of Xenopus tropicalis with 26 samples.

Results

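The most abundant polyadenylated transcripts of single early gastrula embryos of the frog Xenopus tropicalis are described here: the 125 gene models whose mean over 15 embryos was at least 750 TPM, out of 26550 models in the expression table. TPM is a measure of transcript abundance corrected for transcript length and scaled so that each embryo adds up to the same total. The embryos came from 3 clutches, called C, B and A, with 5 siblings each. All were untreated whole embryos collected 7 hours after fertilisation at Nieuwkoop-Faber stage 10.25, from eggs of hormone-primed females fertilised in vitro, and each library holds 1 embryo. Each clutch was sampled once, so parents, fertilisation and handling of a clutch cannot be told apart, and differences between siblings include those between separately made libraries. The study also profiled the histone mark H3K4me1 in 11 other samples, which carry no link to these models and are not analysed here.

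At the early gastrula stage an embryo holds maternal messenger RNA, loaded into the egg, beside RNA from its own genome, which is switched on at the midblastula transition some hours before. In animal cells the messages at the top of the abundance range commonly encode ribosomal proteins, translation factors, cytoskeletal proteins and metabolic enzymes. In polyadenylated libraries mitochondrial messages can also rank high. Whether any of the 125 models belong to these classes is not known here. The table gives model numbers alone, and 0 of the 26550 identifiers matched the reference gene table. The labels and the file header name no genome build. No sequence, position or function is therefore assigned to any model. In libraries of whole embryos, fewer cells of a type and less RNA per cell cannot be told apart.

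Abundance dropped sharply after the first model and fell more gradually from place to place below it. The first model, Xetrov90027395m.g, averaged 32689 TPM, 4.22 times the 7740.1 TPM of the next, Xetrov90022953m.g, and it ranked first in all 15 embryos. From the model in second place to the last, the mean fell 10.3-fold. The median of the 125 means was 1281 TPM; 39 models averaged at least 2000 TPM, 40 lay between 1000 and 2000 TPM and 46 between 750 and 1000 TPM. These levels chose the models and are a description.

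The level of Xetrov90027395m.g varied widely among siblings. In samples 1 to 5 it was at 48833, 56653, 25447, 19974 and 41543 TPM in clutch C, at 41208, 24175, 22359, 21506 and 23439.6 TPM in clutch B, and at 24767, 29579.6, 39122, 39515 and 32206 TPM in clutch A. The clutches overlapped, and both the highest and the lowest of the 15 embryos belonged to clutch C. The means were 38490.2 ± 15485 TPM in clutch C, 26538 ± 8264 TPM in clutch B and 33038 ± 6325 TPM in clutch A (SD, n = 5 each). In clutch B, 4 embryos lay between 21506 and 24175 TPM and sample 1 stood apart from them. Set over the second model in the same embryo, which removes any effect of the common total, the ratio ran from 2.31 to 8.04 in clutch C, from 2.57 to 5.82 in clutch B and from 3.32 to 5.89 in clutch A. No difference between clutches passed the test (limma on log2(TPM + 1), F-test adjusted p = 0.307). The largest, clutch C over clutch B, was 0.48 ± 0.28 (SE) on the log2 scale, with an adjusted p of 0.177 in limma. It passed at 0.0378 without sample 4 of clutch C, the embryo with the lowest value, and the adjusted p ran from 0.0378 to 0.381 over the alternatives other than quantile normalization. Quantile normalization is void for this model, because it gives a model that ranks first in every embryo the same value in each.

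The next models were far steadier. Xetrov90022953m.g was at 8159, 7046, 8324, 8638 and 7597 TPM in clutch C, at 7079.7, 7743, 7665, 8366 and 8183 TPM in clutch B, and at 7459, 7736, 6643, 7904 and 7559 TPM in clutch A. All clutches overlapped (limma F-test adjusted p = 0.401). Xetrov90013695m.g was at 6024, 7976, 6089.6, 7429 and 6584 TPM in clutch C, at 6259.9, 6402, 7221, 6878 and 6180.0 TPM in clutch B, and at 6547, 6920.5, 6540.0, 6413 and 6313 TPM in clutch A. Its siblings spread most in clutch C, and again the clutches overlapped (limma F-test adjusted p = 0.776). Under quantile normalization alone, which gives each rank the same value in every embryo, clutch C passed as higher than clutch B, by 0.18 on the log2 scale (limma adjusted p = 0.0054; 0.0054 to 0.922 over 25 alternatives). Xetrov90011860m.g was at 6595, 6428, 7254, 7266 and 7115 TPM in clutch C, at 6364, 6707, 6241, 6701 and 6612 TPM in clutch B, and at 6153, 6374, 5953, 6681 and 6684 TPM in clutch A. It missed the threshold among clutches (limma F-test adjusted p = 0.0752). In the single pair, it was 0.12 ± 0.05 (SE) higher in clutch C than in clutch A on the log2 scale, with an adjusted p of 0.0432 in limma. The call was lost under 11 of 25 alternatives, over which the adjusted p ran from 0.0161 to 0.209.

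The models in the fifth and sixth places moved together. Xetrov90005480m.g was at 5596, 4664, 5592, 6294 and 5842 TPM in clutch C, at 6652, 7007, 7618, 7089.7 and 6578 TPM in clutch B, and at 6906, 6365, 6284, 6156 and 6050.2 TPM in clutch A. Xetrov90001462m.g was at 5814, 4775, 5473, 6361 and 6083 TPM in clutch C, at 6342, 6748, 7289.6, 7009 and 6240.1 TPM in clutch B, and at 7157, 6444, 6312, 6309 and 5886 TPM in clutch A. In every embryo both models lay within a few percent of each other: their ratio ran from 0.960 to 1.05, and its spread on the log2 scale (SD 0.0479 over 15 embryos) was the tenth smallest among the 7750 pairs of abundant models, whose median was 0.180. This pair was singled out after its values were seen. Clutch C was lower than clutch B in both, by -0.33 ± 0.07 (SE, log2) for Xetrov90005480m.g (limma adjusted p = 0.000792), where the groups did not overlap, and by -0.24 ± 0.07 (SE, log2) for Xetrov90001462m.g (limma adjusted p = 0.0105), where they overlapped. The call for Xetrov90001462m.g was lost under quantile normalization, and its adjusted p ran from 0.00471 to 0.22 over 25 alternatives. Against clutch A, clutch C was lower in Xetrov90005480m.g by -0.19 ± 0.07 (SE, log2; limma adjusted p = 0.0325), a call lost under 9 of 25 alternatives, with adjusted p from 0.0103 to 0.168. Models that share near-identical sequence can share reads, and whether this holds for the pair was not tested. 3 pairs of abundant models carry consecutive model numbers. For one of them, Xetrov90022953m.g over Xetrov90022954m.g (second and eighth in mean TPM), the ratio ran from 1.49 to 1.91. Its SD of 0.0948 (log2) was larger than that of the pair above, and the pair came in place 670 of 7750. The other consecutive pairs came in places 1677 and 2692, with SDs of 0.123 and 0.147, also under the median of 0.180.

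**Figure D1:**
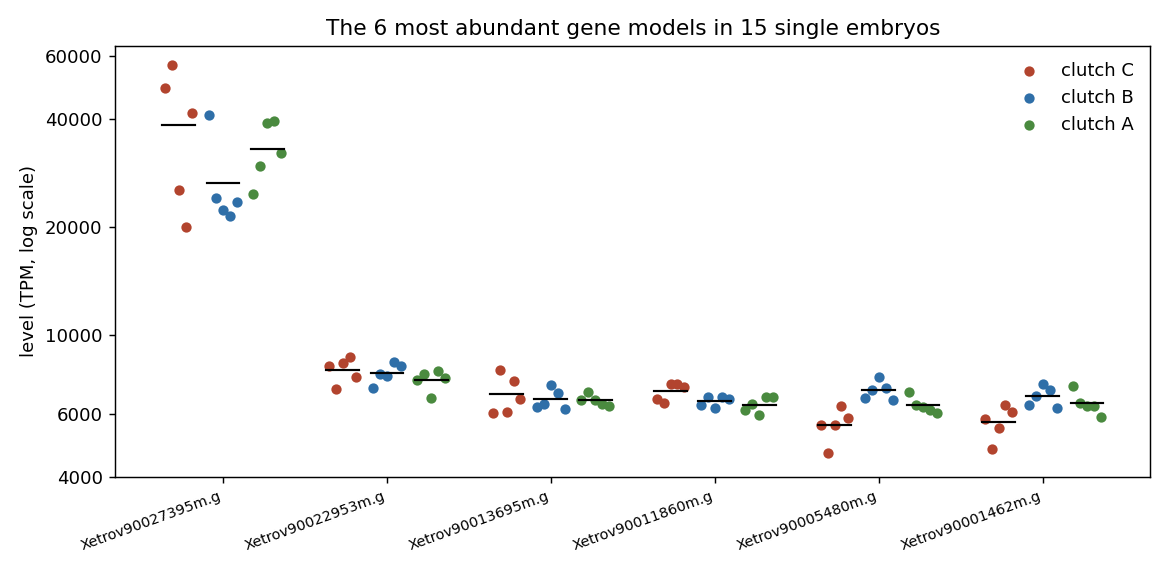
Levels in TPM, on a log scale, of the 6 gene models with the highest mean over 15 single embryos, with a point per embryo and a black line at the mean of each clutch (C, B and A from left to right, 5 embryos each). The first model spans 19974 to 56653 TPM and lies above all others in every embryo, while the next 5 stay between 4664 and 8638 TPM.

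The 125 models, 0.471% of those in the table, held 25.6% of all TPM on average, and 24.4% to 26.9% in single embryos. The first model alone held 2.00% to 5.67%, the 10 highest together 8.32% on average and the 39 models of at least 2000 TPM 15.9%. Reaching 50% of all TPM took between 715 and 815 models, depending on the embryo.

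By clutch, the share of the 125 models was 26.8%, 26.9%, 25.1%, 25.6% and 26.6% in samples 1 to 5 of clutch C. It was 26.1%, 24.8%, 25.2%, 25.03% and 24.4% in clutch B, and 25.1%, 25.2%, 25.7%, 26.1% and 25.04% in clutch A. The clutches overlapped, with means of 26.2% ± 0.806 in clutch C, 25.1% ± 0.628 in clutch B and 25.4% ± 0.458 in clutch A (SD, n = 5 each). No p is given for a sum over models chosen by their level. The share of the first model was 5.67% in sample 2 and 2.00% in sample 4 of clutch C, the highest and the lowest of the 15 embryos. In the same embryos the other 124 models held 21.2% in sample 2 and 23.6% in sample 4. Taken out of both the sum and the total, it left the other 124 models with 23.2% ± 0.582 of the rest in clutch C, 23.1% ± 0.360 in clutch B and 22.9% ± 0.267 in clutch A.

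**Figure D2:**
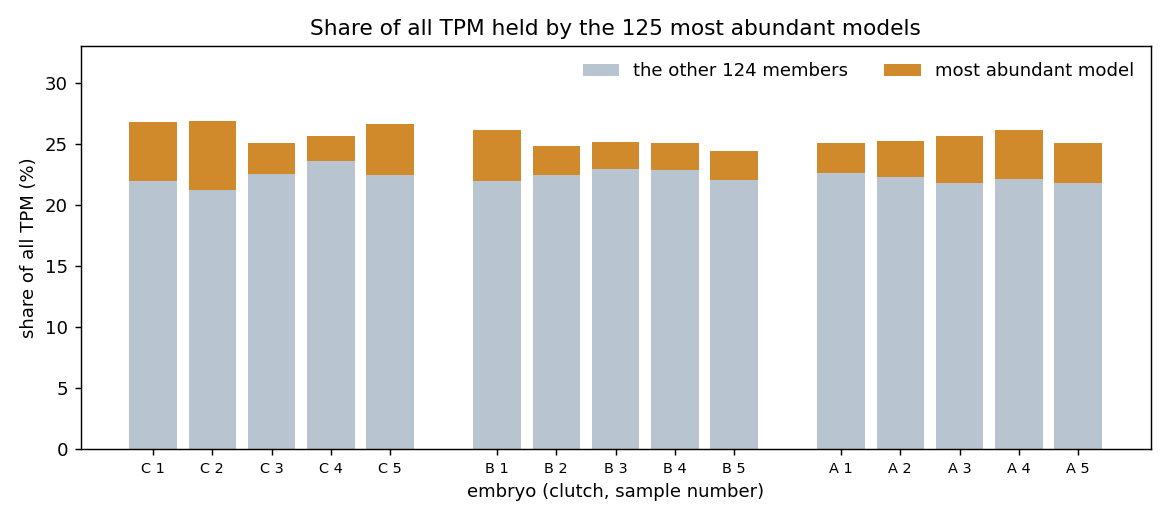
Share of all TPM, in percent, held by the 125 most abundant models in each of 15 embryos, ordered by clutch (C, B, A) and sample number; bars start at 0, grey marks the other 124 models and orange the first model. Totals lie between 24.4% and 26.9%, and the orange part varies from 2.00% to 5.67%.

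Most of the abundant models were abundant in every embryo. The mean over these same embryos chose the models and favours this outcome, so it is a description. Of the 125, 98 were at or above 750 TPM in all 15 embryos, and no value of any of them lay under 453.9 TPM. The 125 highest models of each embryo had 96 in common and came from 175 in all; the 10 highest of each embryo had 7 in common and came from 15. The threshold mattered for the lower end: 14 of the 125 had a clutch mean under 750 TPM, and 19 models outside the set had a clutch mean at or above it. Just inside lay Xetrov90016543m.g at 761 TPM and Xetrov90012499m.g at 753 TPM, and just outside Xetrov90028535m.g at 749 TPM and Xetrov90014407m.g at 739 TPM.

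Variation among siblings was measured as the standard deviation over the mean (CV) of TPM in the 5 embryos of a clutch. The median CV of the 125 models was 5.79% in clutch C, 5.49% in clutch B and 6.54% in clutch A. With the CV of each model first averaged over the clutches, the median was 6.05%, against 6.20% for the 2208 models of 100 to 750 TPM. It was 8.83% for the 6334 models of 10 to 100 TPM and 14.8% for the 1344 models of 5 to 10 TPM. These medians are given without a test. Of the 125, 107 had a mean CV under 10% and 41 under 5%, and the level hardly ordered them: the median was 6.86% for models of at least 2000 TPM, 5.45% for those of 1000 to 2000 TPM and 6.08% for those of 750 to 1000 TPM.

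A few models stood out from this. Xetrov90027395m.g, the most abundant, also had the highest mean CV of the 125, 30.2%, with 40.2% in clutch C, 31.1% in clutch B and 19.1% in clutch A. Among all 2333 models of at least 100 TPM, 16 had a higher value. Xetrov90012972m.g followed at 22.7%, with 7.55% in clutch C, 23.1% in clutch B and 37.4% in clutch A. It was at 1137, 1250.2, 1341, 1154 and 1132 TPM in clutch C, at 644, 713, 968, 578 and 946 TPM in clutch B, and at 681, 904, 1017, 496 and 1371 TPM in clutch A. The 5 embryos of clutch C lay above those of clutch B, while clutch A spanned both. Xetrov90017952m.g, named after its values were seen, reached a CV of 39.5% in clutch A through 1 embryo at 1710.0 TPM, against 785 to 858 TPM in the other 4. In all, 7 of the 125 had a mean CV of at least 15%.

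At the other end, Xetrov90009701m.g had the lowest mean CV, 2.82%, and Xetrov90007200m.g the next lowest. Xetrov90009701m.g was at 1048, 1054, 1086, 1123 and 1044 TPM in clutch C, at 1189, 1264, 1194, 1230.3 and 1211 TPM in clutch B, and at 1171, 1135, 1164, 1092 and 1159 TPM in clutch A. Clutch B lay above all other embryos, although the difference was small: clutch C was lower than clutch B by -0.18 ± 0.03 (SE, log2; limma adjusted p = 0.000406). The difference of clutch B over clutch A, 0.09 ± 0.03 (SE, log2), was not called (limma adjusted p = 0.0717). Clutch C was lower than clutch A by -0.10 ± 0.03 (SE, log2; limma adjusted p = 0.0378), a call lost under 12 of 25 alternatives. Xetrov90007200m.g stayed between 918 and 1020.2 TPM in all 15 embryos, with overlapping clutches (limma F-test adjusted p = 0.82).

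**Figure D3:**
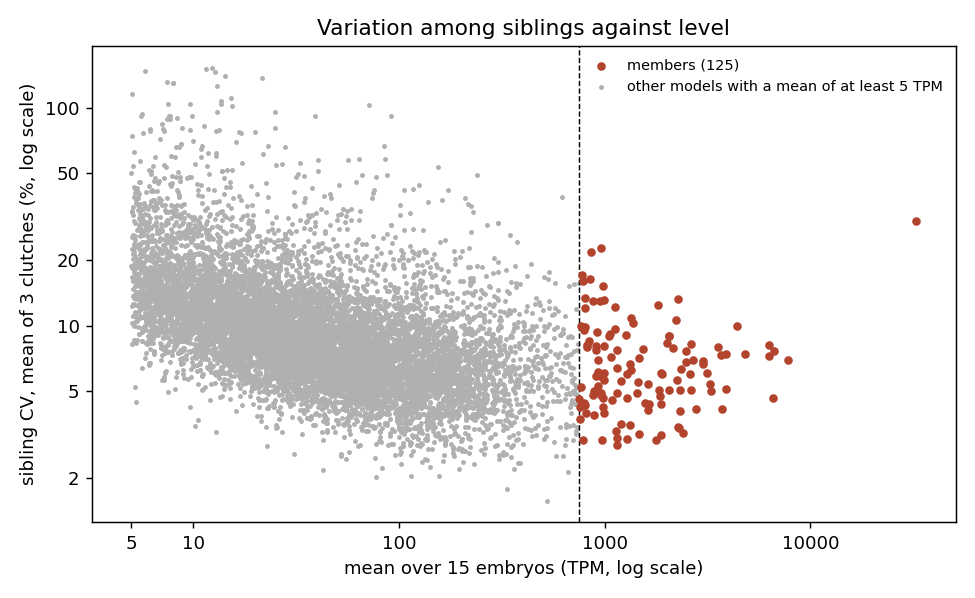
Standard deviation over mean of TPM among 5 siblings, averaged over the 3 clutches (percent, log scale), against the mean over 15 embryos (TPM, log scale) for all models of at least 5 TPM; the 125 most abundant are in red, right of the dashed line at 750 TPM. Their median is 6.05%, close to the 6.20% of models of 100 to 750 TPM, and the rightmost point, at 32689 TPM, lies at 30.2%.

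Some embryos were high or low across many abundant models at once. Such counts were not computed for models of lower level, so this is not read as a trait of the abundant models. Leaving out the first model, each of the 5 siblings would be the highest in 24.8 of the other 124 models if shared evenly. Sample 4 of clutch C was the highest of its clutch in 60 models and the lowest in 2, and sample 2 of clutch C the highest in 9 and the lowest in 61. These are also the embryos with the lowest and the highest level of Xetrov90027395m.g in that clutch. After rescaling to a common total without Xetrov90027395m.g, sample 4 was the highest in 43 and the lowest in 6, and sample 2 the highest in 15 and the lowest in 54. Median-ratio scaling divides each embryo by its median ratio to the geometric mean of all embryos. With it, sample 4 was the highest in 58 and the lowest in 2, and sample 2 the highest in 10 and the lowest in 65. In clutch B, sample 5 was the lowest in 51 models as deposited, in 55 after the rescaling and in 69 with median-ratio scaling. In clutch A the counts as deposited ran from 13 to 40 models highest and from 8 to 40 lowest.

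Differences between clutches were tested in 1 limma fit over all 12551 models with a mean of at least 1 TPM, at an adjusted p under 0.05 (Benjamini-Hochberg). In the F-test, 63 of the 125 abundant models differed among clutches (50.4%), against a background of 57.9% of all models tested. Differences among them were small. Of the 125, 22 were called with a pair of clutches 1.25-fold or more apart (17.6%, background 41.1%), 3 with a pair 1.5-fold or more apart (2.40%, background 20.7%) and 0 with a pair 2-fold or more apart (background 8.42%). The 3 were Xetrov90001544m.g, Xetrov90012972m.g and Xetrov90010442m.g, each between clutches C and B. The background reaches down to 1 TPM, where siblings vary more: the median SD within clutches (log2) was 0.144 over all models tested and 0.093 over the 125. Sizes of differences, here and for each pair below, were not compared with models of similar level. The share of variance between clutches had a median of 42.4% over the 125 models, 49.3% over models of 100 to 750 TPM and 50.4% over all models tested. It was estimated at 0 for 16 of the 125, for 285 of 2208 models of 100 to 750 TPM and for 1703 of all 12551 models tested.

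The 63 called models did not follow a single order of clutches. The highest mean was in clutch C for 21 of them (33.3%), in clutch B for 29 (46.0%) and in clutch A for 13 (20.6%), against 34.1% in clutch C, 39.6% in clutch B and 26.3% in clutch A over all 7264 models called in the F-test. The lowest mean was in clutch C for 27 (42.9%), in clutch B for 19 (30.2%) and in clutch A for 17 (26.98%), against 46.6% in clutch C, 27.1% in clutch B and 26.3% in clutch A over all called models. The split depended on the scaling, for the abundant models and for all models called. With median-ratio scaling, 61 models were called. The highest mean was in clutch C for 28 (45.9%), in clutch B for 22 (36.1%) and in clutch A for 11 (18.0%). Over all 7223 models called with this scaling it was in clutch C for 39.4%, in clutch B for 33.5% and in clutch A for 27.1%. With TPM as deposited, 57.9% of all models tested were called in the F-test. Of the abundant models, 17 of 39 with at least 2000 TPM were called. So were 22 of 40 at 1000 to 2000 TPM and 24 of 46 at 750 to 1000 TPM. Among the 62 without a call in the F-test, the largest difference between a pair of clutches had a median size of 0.10 (log2). The F-test and the tests of single pairs did not always give the same call. Only 53 abundant models were called in no pair, so some of the 62 were called in a pair of clutches. Xetrov90011860m.g, described above, is an example. A p that misses the threshold does not show that the 62 models are equal between clutches.

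Clutch C differed from clutch A in 39 of the 125 models (31.2%, background 41.6%). Of the 125, 20 were called higher in clutch C (16%, background 18.2%) and 19 lower (15.2%, background 23.4%). With median-ratio scaling the split was 25 higher and 12 lower. The matching background shares were not computed for this scaling, so the split is not read as a trait of the abundant models. The scaling also moved the median difference over all models tested, from -0.030 to -0.011 (log2). Calls of at least 1.25-fold numbered 8 (6.4%, background 26.7%) and of at least 1.5-fold 0 (background 12.7%). The median size of the difference was 0.09 on the log2(TPM + 1) scale, against 0.19 over all models tested. Without sample 3 of clutch A, sample 4 of clutch C or sample 5 of clutch C, 13 models were called higher. Without sample 1 of clutch A, 12 were called lower. Background shares were not computed for these omissions.

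The largest called difference of this pair was in Xetrov90029514m.g for lower values and in Xetrov90024483m.g for higher ones. Xetrov90024483m.g, in place 23, was at 3320.1, 3048, 3138, 3617 and 3104 TPM in clutch C, at 2141, 2122, 2214, 2324 and 2187 TPM in clutch B, and at 2028, 2414, 2368, 2419.8 and 2399 TPM in clutch A. Every embryo of clutch C lay above the other 10, and the difference was 0.48 ± 0.06 (SE, log2) over clutch A (limma adjusted p = 3.84e-06). Xetrov90022504m.g was also higher, at 813 to 1049 TPM in clutch C and 532 to 839 TPM in clutch A, which overlapped (0.39 ± 0.11 SE, log2; limma adjusted p = 0.0129). Xetrov90029514m.g was lower, at 716, 627, 692, 702 and 553 TPM in clutch C and 718, 974, 1027, 829 and 1026 TPM in clutch A (-0.47 ± 0.12 SE, log2; limma adjusted p = 0.00446). The groups did not overlap, though the highest embryo of clutch C came within a few TPM of the lowest of clutch A. Xetrov90025560m.g was also lower, at 1196 to 1405 TPM in clutch C and 1627 to 1886 TPM in clutch A (-0.43 ± 0.06 SE, log2; limma adjusted p = 3.75e-05). Its 5 embryos of clutch A lay above all 10 others.

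Clutch C differed from clutch B in 52 models (41.6%, background 48.1%). Of the 125, 20 were called higher in clutch C (16%, background 19.8%) and 32 lower (25.6%, background 28.2%). With median-ratio scaling the split was 28 higher and 24 lower, and after rescaling over the models outside the set it was 26 higher and 27 lower. The balance of directions thus depends on the scaling, and the matching background shares were not computed for these scalings. The median difference over all models tested moved as well, from -0.045 to -0.008 (log2) with median-ratio scaling and to -0.025 after the rescaling. Calls of at least 1.25-fold numbered 15 (12%, background 31.3%) and of at least 1.5-fold 3 (2.4%, background 14.6%). The median size of the difference was 0.12 (log2), against 0.22 over all models tested. Xetrov90001544m.g, in place 9, was at 4639.8, 4682, 4754, 5144 and 4905 TPM in clutch C, at 2910.2, 2714, 3175, 3271 and 2785 TPM in clutch B, and at 4319, 3906, 4025, 3821 and 3275 TPM in clutch A. The 3 clutches did not overlap, though the lowest embryo of clutch A came within a few TPM of the highest of clutch B. Clutch C was highest and clutch B lowest, and each pair passed the test. Its difference of 0.70 ± 0.07 (SE, log2) between clutches C and B was the largest upward one among the 125 (limma adjusted p = 3.65e-07). Xetrov90012972m.g, described above for its spread, was higher in clutch C by 0.67 ± 0.23 (SE, log2; limma adjusted p = 0.0242), a call lost under 4 of 25 alternatives, with adjusted p from 0.0049 to 0.0618.

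The largest downward difference between clutches C and B was in Xetrov90010442m.g. It was at 897, 809, 837, 893 and 845 TPM in clutch C, at 1117, 1538, 1804, 1521 and 1453 TPM in clutch B, and at 1251, 947, 1016, 993 and 815 TPM in clutch A. Clutch C lay below clutch B without overlap (-0.78 ± 0.11 SE, log2; limma adjusted p = 3.98e-05), and siblings of clutch C were much closer to each other, with a CV of 4.39%, than those of clutch B at 16.6% and of clutch A at 15.8%. Xetrov90015415m.g followed, at 2298, 1871, 1894, 1962 and 1687 TPM in clutch C, at 3804, 2916, 2978, 2537 and 2369 TPM in clutch B, and at 1742, 1916, 2094, 2124 and 1769 TPM in clutch A. All 5 embryos of clutch B lay above the other 10 (clutch C minus clutch B, -0.58 ± 0.11 SE, log2; limma adjusted p = 0.000545).

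Clutch B differed from clutch A in 27 models (21.6%, background 25.6%). Of the 125, 18 were called higher in clutch B (14.4%, background 14.2%) and 9 lower (7.2%, background 11.4%). Calls of at least 1.25-fold numbered 11 (8.8%, background 15.8%) and of at least 1.5-fold 0 (background 7.42%). The median size of the difference was 0.08 (log2), against 0.14 over all models tested. The largest upward differences were again in Xetrov90015415m.g (0.58 ± 0.11 SE, log2; limma adjusted p = 0.00106) and Xetrov90010442m.g (0.56 ± 0.11 SE, log2; limma adjusted p = 0.00161). The comparisons of clutch B share its embryos, so these are not independent of the values against clutch C. Xetrov90005307m.g was lower, at 637, 681, 753, 701 and 699 TPM in clutch B and 1002, 1060.4, 946, 1031 and 925 TPM in clutch A, without overlap (-0.52 ± 0.08 SE, log2; limma adjusted p = 9.45e-05). Clutch C spanned the gap between them, at 704 to 985 TPM. Xetrov90021331m.g was also lower, at 905 to 1182 TPM in clutch B and 1272 to 1558 TPM in clutch A (-0.47 ± 0.07 SE, log2; limma adjusted p = 7.68e-05).

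**Figure D4:**
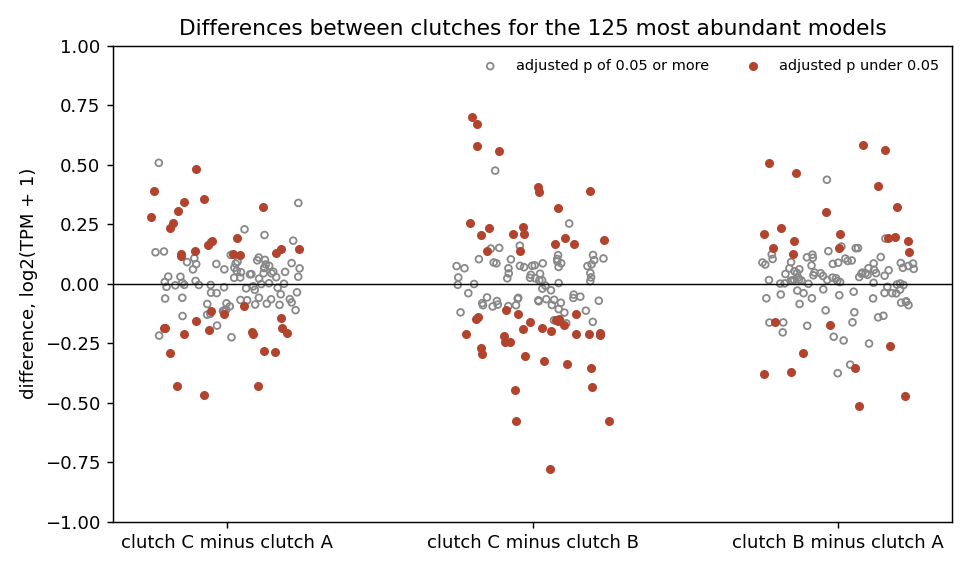
Differences between clutches on the log2(TPM + 1) scale for the 125 most abundant models, a point per model, for clutch C minus A, clutch C minus B and clutch B minus A; red points have a limma adjusted p under 0.05. Called models number 39, 52 and 27, lie on both sides of 0, and none reaches a difference of 1, that is 2-fold.

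Few abundant models separated a clutch without overlap, and for clutch B the shares were close to the background. The background reaches down to 1 TPM, and shares over models of similar level were not computed. All 5 embryos of clutch C lay above the other 10 in 5 models (4%, background 7.35%) and below them in 3 (2.4%, background 9.62%). Clutch B was above in 6 (4.8%, background 5.48%) and below in 4 (3.2%, background 3.43%). Clutch A was above in 2 (1.6%, background 2.96%) and below in 0 (background 3.12%). Xetrov90001544m.g counts on both sides, as the model highest in clutch C and lowest in clutch B. The 2 models of clutch A were Xetrov90025560m.g and Xetrov90021331m.g.

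**Figure D5:**
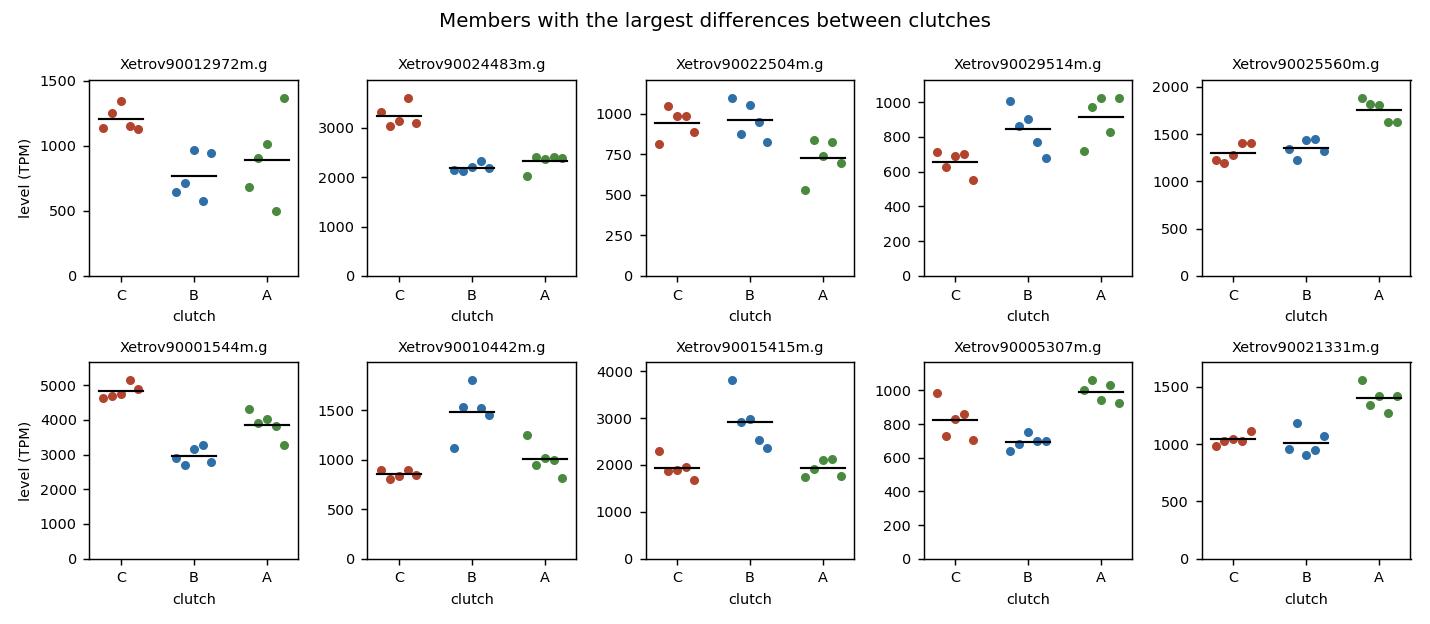
Levels in TPM, on axes from 0, of the 10 abundant models with the largest called differences in the 3 pairs of clutches, with a point per embryo and a line at the clutch mean (C, B and A from left to right, 5 embryos each). Xetrov90024483m.g is set apart in clutch C, Xetrov90015415m.g in clutch B, and Xetrov90025560m.g and Xetrov90021331m.g in clutch A.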

How the data were processed

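Polyadenylated RNA of 15 single embryos was made into libraries with Smart-seq2 cDNA synthesis followed by tagmentation, according to the labels' protocols. Bowtie2 2.2.7 and RSEM 1.2.12 are named in the submitters' processing notes. The authors deposited TPM values for 26550 gene models in 15 columns, assigned to embryos by their titles. TPM keeps no record of depth, so read numbers are unknown and no counting interval is given. Each column has the same total, so a high value of 1 model lowers all others. The 9 peak lists of the H3K4me1 samples are not used here. The models and lists described were chosen with earlier results of these data known. Named were the 6 most abundant models, the 2 highest and 2 lowest in sibling variation, the 2 largest called differences per direction and pair, and the 2 models on each side of the threshold.

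Clutches were compared with limma 3.58.1 (R 4.3.3) on log2(TPM + 1) of 12551 models averaging at least 1 TPM, which all 125 abundant models passed, using empirical Bayes moderation with a trend and robust estimation. Variance between clutches was estimated per model by a random-effects analysis on the same scale. Sums and CVs were computed in Python 3.11.15 with pandas 2.3.3. The limma step was tested on simulated data for clutch C against clutch A over 12551 models, with 25 abundant models changed at each fold. It recovered 8% of them at 1.1-fold, 72% at 1.25-fold, 96% at 1.5-fold and 100% at 2-fold, and made 9 false calls among 12351 unchanged models. Nearly all simulated models were unchanged, whereas 41.6% of all models tested were called for this pair in the data. With so few changed models the adjustment of p is stricter, so these recovery rates do not describe the fit to the data. Alternatives covered pseudocounts, filters, scalings, thresholds, plain moderation, a block for the sample number and the omission of single embryos. Rescaling without the most abundant model was added after seeing the data.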

Additional observations from a re-analysis of the deposited data

Results flagged for a closer look

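In 60 groups of 5 siblings (20 quantities in 3 clutches), 2 held an embryo far from the other 4. The quantities were shares of TPM and models named above, some chosen for their spread among siblings, so no chance rate applies. Xetrov90027395m.g was at 41208 TPM in sample 1 of clutch B, where its siblings lay between 21506 and 24175 TPM. Xetrov90024483m.g was at 2028 TPM in sample 1 of clutch A, where its siblings lay between 2368 and 2419.8 TPM. Other abundant models were not examined in this way. Among them is Xetrov90017952m.g, described above, with 1 embryo of clutch A far over its siblings.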

How the results depend on the processing

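Thresholds of 500 and 1000 TPM gave 254 and 79 models in place of 125. Their share of all TPM was 34.0% and 22.2% in clutch C, 33.1% and 21.02% in clutch B, and 33.1% and 21.4% in clutch A. With every clutch mean at or above 750 TPM, 111 models held 25.1% in clutch C, 24.01% in clutch B and 24.3% in clutch A. Without the most abundant model the shares were 23.2%, 23.1% and 22.9% in clutches C, B and A. The median over embryos in place of the mean gave 124 models, 123 of them among the 125. Median absolute deviations gave a sibling variation of 5.24% in place of 6.05%. Median-ratio scaling left 12 models lower in clutch C than in clutch A, in place of 19. Without the filter, in a fit over all 26550 models, 54 abundant models were called in the F-test and 28 for clutch C against clutch A. It was 40 for clutch C against clutch B and 24 for clutch B against clutch A. Plain moderation gave 57, 30, 45 and 25 in the same order. Leaving out each embryo gave 124 to 126 models and 54 to 64 models called in the F-test. For clutch C against clutch A it gave 28 to 43, with 13 to 24 higher and 12 to 21 lower. It gave 43 to 54 for clutch C against clutch B, and 25 to 30 for clutch B against clutch A. The cause of these shifts was not tested. Shares called over all models tested were not computed for these settings or for the block below. The counts are therefore not read as changes particular to the abundant models. Over 54 differences (18 named models in 3 pairs of clutches) and 25 alternatives each, none changed sign while passing the test in either fit, 43 calls were lost and 10 were gained. The largest shift of the median of all models by a scaling was 0.04 (log2). With the sample number as a block, 60 models were called in the F-test, 37 for clutch C against clutch A, 50 for clutch C against clutch B and 27 for clutch B against clutch A. Embryos with the same number did not deviate together (r across models from -0.0675 to 0.149 over 15 pairs), and an embryo correlated best with its own number in 4 of 15 cases. Depth is unknown, so counting error was not separated from differences between embryos.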
